A study of Mus musculus with 8 samples.

Results

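The enzymes that write and erase histone acetylation and methylation were looked up in maps of H3K27ac, the acetylation of lysine 27 of histone H3. The genes were chosen by symbol: the Hdac, Sirt, Kat, Kmt, Kdm, Prmt and Setd families together with Crebbp, Ep300, Ehmt1, Ehmt2 and Carm1. They are 73 of the 21951 protein-coding mouse genes of the GENCODE annotation, in 5 classes: 10 lysine acetyltransferases, 18 lysine deacetylases, 18 lysine methyltransferases, 18 lysine demethylases and 9 arginine methyltransferases. H3K27ac was mapped by chromatin immunoprecipitation and sequencing (ChIP-seq) in Oli-neu, an immortalised mouse line of the oligodendrocyte lineage, in 2 states with 1 library each. Proliferating cells grew with bFGF at 10 ng/ml and Pdgf-BB at 1 ng/ml. Differentiating cells received medium lacking growth factors with 1 µM of the erb inhibitor PD174265. The proliferation medium also held T3 at 340 ng/ml and L-thyroxine at 400 ng/ml. Whether the differentiation medium held them too is not stated outright, so they are not known to differ between the states. Differentiation lasted 1 day by the sample labels but longer by the culture methods of the study, and which holds for this library is not known. The labels describe the line as OPCs of embryonic origin from C57BL/6. The study also has ATAC-seq samples, 3 siCtr and 3 siPadi2, which were not analysed here.

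H3K27ac lies at active promoters and enhancers. It is laid down mainly by the acetyltransferases p300 and CBP, encoded by Ep300 and Crebbp, and removed by the histone deacetylases (HDACs), while lysine and arginine methyltransferases and the demethylases set other marks on the same nucleosomes. In the oligodendrocyte lineage Hdac1 and Hdac2 are known to be needed for differentiation. The peaks describe the chromatin at these genes, not the amount or activity of the enzymes.

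The deposited lists hold 28924 peaks in proliferating and 27965 in differentiating cells. Each peak has a fold enrichment over background and a −log10 q, where q is the p-value of the peak caller adjusted for many tests, and the lowest −log10 q was 1.0 and 1.01. The lists thus reach past the q cutoff of 0.05 that the methods state, and all peaks in them were used unless said otherwise. Because there was 1 library per state, no test was run, fold enrichment and −log10 q were ranked only within their own list, and a difference between the lists cannot be told apart from variation between cultures or libraries. Read numbers are not part of the lists, and the depth behind each peak is unknown. The percentile of a peak is the share of peaks of its list with a lower −log10 q. Of 6 lineage markers, Sox10, Olig1 and Olig2 had a promoter peak in both lists, while Nkx2-2, Cspg4 and Pdgfra had none. No promoter of 6 oligodendrocyte, 4 astrocyte and 4 microglia markers had a peak in either list, and of 4 neuronal markers Syt1 had one in the differentiating list.

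A promoter with a strong peak is shown first for each class, so that the sequence before the gene start can be seen. By the higher −log10 q of the 2 lists each has the strongest peak of its class, apart from Kmt2d, which follows Kmt2e. They are Kmt2d (ENSMUSG00000048154.17, chr15:98871205-98871454, minus strand), Kat5 (ENSMUSG00000024926.10, chr19:5610238-5610487, minus strand), Hdac2 (ENSMUSG00000019777.16, chr10:36974294-36974543, plus strand), Kdm3a (ENSMUSG00000053470.13, chr6:71632991-71633240, minus strand) and Prmt1 (ENSMUSG00000109324.2, chr7:44986569-44986818, minus strand). The sequences are the 250 bases before the transcription start site (TSS) in GRCm38, 5′ to 3′ on the strand of the gene. The peaks do not cover all of these bases. The differentiating peak of Kmt2d ended 299 bp before the TSS, and the proliferating peak of Prmt1 began 384 bp after it. Capitals mark matches, on either strand, to the short motifs searched for further down (a GC box, a CCAAT box and an E-box).
Kmt2d: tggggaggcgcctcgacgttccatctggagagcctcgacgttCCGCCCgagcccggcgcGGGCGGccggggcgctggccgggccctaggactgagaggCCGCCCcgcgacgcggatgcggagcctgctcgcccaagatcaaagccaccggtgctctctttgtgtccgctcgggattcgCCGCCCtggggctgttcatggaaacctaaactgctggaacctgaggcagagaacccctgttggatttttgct
Kat5: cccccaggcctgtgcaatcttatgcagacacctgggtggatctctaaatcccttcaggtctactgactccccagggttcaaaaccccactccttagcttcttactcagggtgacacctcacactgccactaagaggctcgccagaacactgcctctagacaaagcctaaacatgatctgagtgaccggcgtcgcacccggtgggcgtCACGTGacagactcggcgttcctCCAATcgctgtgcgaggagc
Hdac2: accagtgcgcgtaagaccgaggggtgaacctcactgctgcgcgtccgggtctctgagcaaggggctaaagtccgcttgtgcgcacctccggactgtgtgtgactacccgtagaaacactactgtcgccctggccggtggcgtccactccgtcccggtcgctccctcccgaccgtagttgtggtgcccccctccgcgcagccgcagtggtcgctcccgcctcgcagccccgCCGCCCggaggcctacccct
Kdm3a: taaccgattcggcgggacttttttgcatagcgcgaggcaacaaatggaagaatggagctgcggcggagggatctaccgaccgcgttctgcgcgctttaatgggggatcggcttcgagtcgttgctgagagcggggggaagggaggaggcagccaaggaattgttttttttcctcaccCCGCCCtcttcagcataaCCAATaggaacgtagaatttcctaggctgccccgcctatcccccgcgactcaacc
Prmt1: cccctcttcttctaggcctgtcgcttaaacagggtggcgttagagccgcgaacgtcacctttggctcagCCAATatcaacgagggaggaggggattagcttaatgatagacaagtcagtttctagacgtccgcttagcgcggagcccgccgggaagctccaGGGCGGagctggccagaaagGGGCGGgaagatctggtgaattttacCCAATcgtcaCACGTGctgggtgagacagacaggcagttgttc

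To ask how many of the enzyme genes carried the mark at their start, promoter regions were taken from 3000 bp before to 100 bp after the TSS, the most upstream start of the gene. In proliferating cells 36 of the 73 genes had a promoter peak (49.3%, 95% exact binomial interval 37.4 to 61.3), against 23.7% of all protein-coding genes. In differentiating cells 46 had one (63.0%, 50.9 to 74.0), against 27.7%. A promoter peak was present in either list at 49 enzyme genes (67.1%, 55.1 to 77.7, against 33.8%) and in both lists at 33 (45.2%, 33.5 to 57.3, against 17.6%). The intervals cover counting error only. The share of marked enzyme genes lay above that of all genes in each list, and most that were marked in one state were marked in the other.

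By class, with 9 to 18 genes each, the intervals overlap and no difference was tested. Lysine methyltransferases were marked in either list at 15 of 18 genes (83.3%, 58.6 to 96.4), acetyltransferases at 8 of 10 (80.0%, 44.4 to 97.5) and arginine methyltransferases at 7 of 9 (77.8%, 40 to 97.2). The values were 10 of 18 for demethylases (55.6%, 30.8 to 78.5) and 9 of 18 for deacetylases (50%, 26.0 to 74.0). The order depended on the region: with it extended to 1000 bp after the TSS, or with every transcript start counted, 14 of 18 demethylases were marked (77.8%), the same share as of arginine methyltransferases (7 of 9). Lysine methyltransferases reached 17 of 18 with either change. Deacetylases stayed at 9 of 18 with the extended region and reached 12 of 18 with every start, and acetyltransferases had 8 and 9 of 10. With every start 42.1% of all protein-coding genes were marked. With the region as first defined, 14 of the 15 marked lysine methyltransferases had a peak in both lists, and 4 of the 8 marked acetyltransferases did. The value was 52% of all protein-coding genes marked in either list. With the extended region the counts were 14 of 17 and 5 of 8. With every transcript start they were 15 of 17 and 6 of 9, and the matching share of all genes was not counted for either change.

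**Figure D1:**
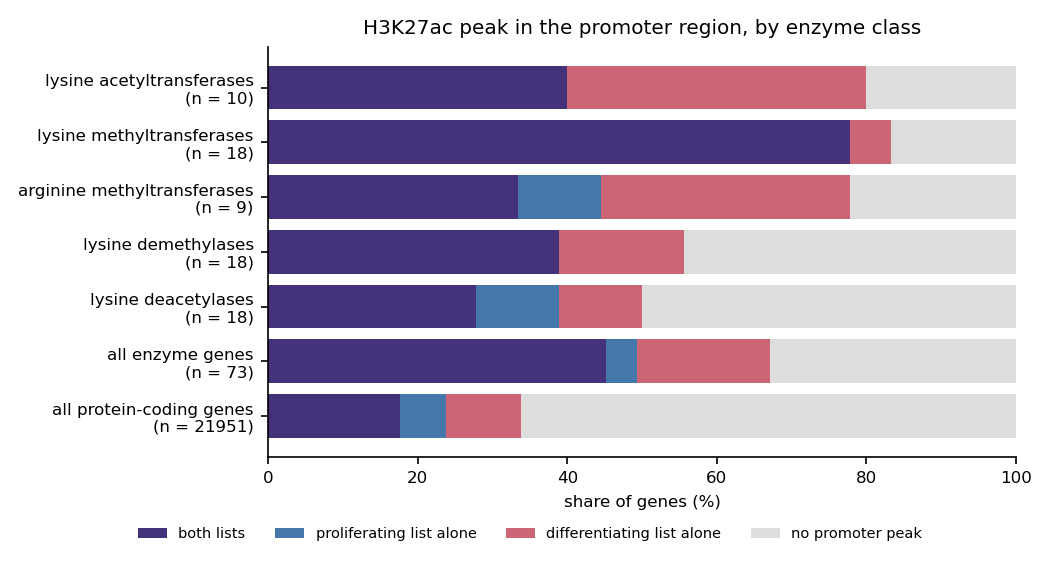
Share of genes (x axis, %) with an H3K27ac peak in the promoter region, by enzyme class and for all 21951 protein-coding genes. Colours separate genes with a peak in both lists, in 1 list alone and in neither; every class lies above all genes, and 14 of 18 lysine methyltransferases have a peak in both lists.

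The peaks at the enzyme promoters ranked above the typical promoter peak by −log10 q and close to it by fold enrichment. In proliferating cells the median −log10 q of the 36 peaks was 2.97, against 2.69 for all 4562 promoter peaks and 1.93 for all peaks, and 10 of the 36 (27.8%) reached 5, against 13.5% of all promoter peaks. In differentiating cells the median of the 46 peaks was 3.77, against 2.76 for 5326 promoter peaks and 1.89 for all peaks, and 13 (28.3%) reached 5, against 15.1%. Their median fold enrichment was 3.68 in proliferating cells (range 2.43 to 5.18), against 3.61 for all promoter peaks, and 3.65 in differentiating cells (2.26 to 6.32), against 3.42.

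**Figure D2:**
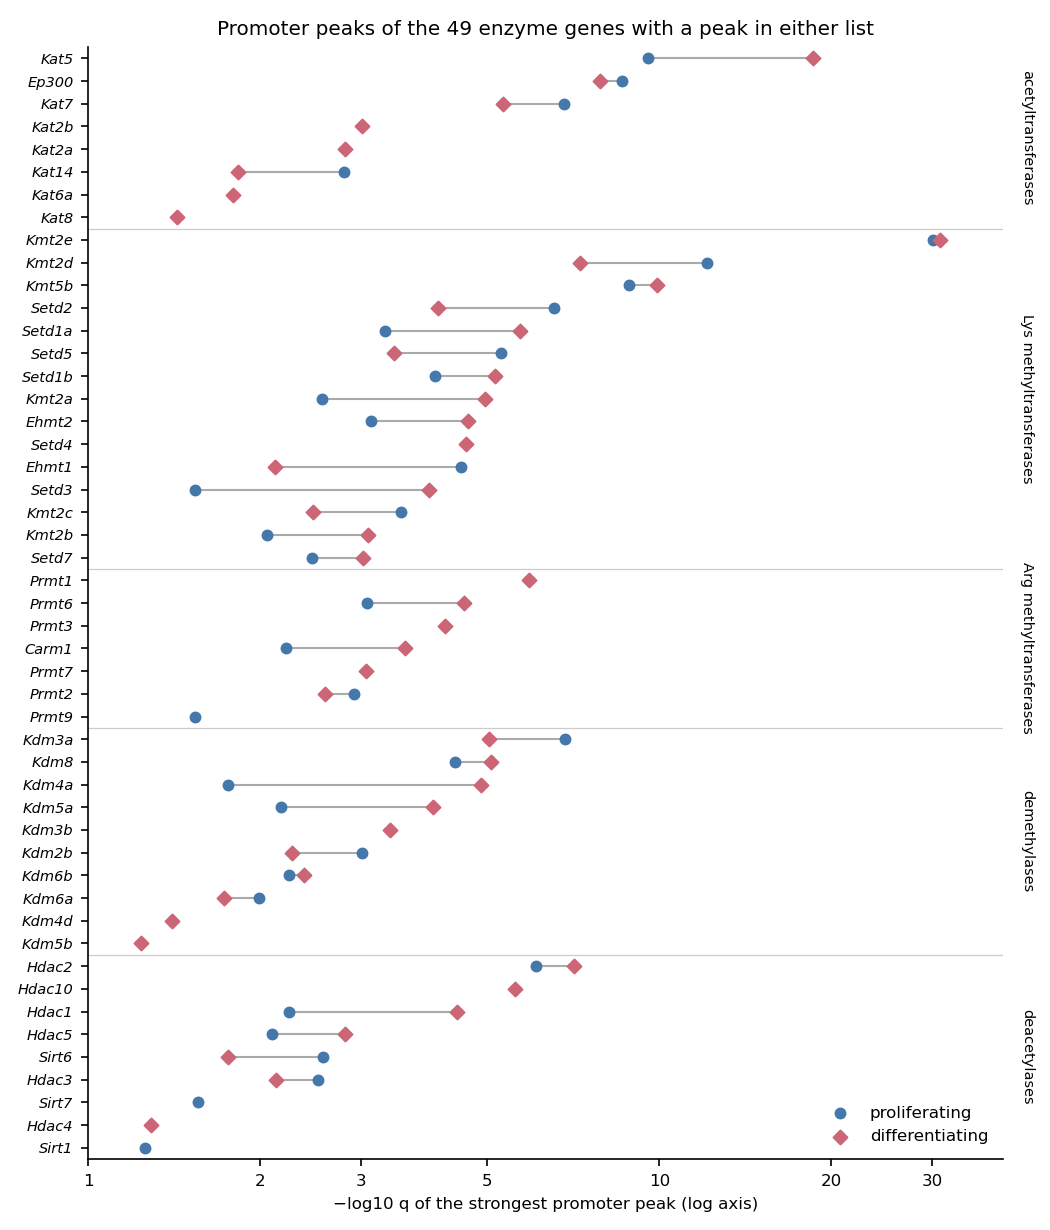
−log10 q of the strongest promoter peak (x axis, log scale) for the 49 enzyme genes with a promoter peak, grouped by class; circles are the proliferating and diamonds the differentiating list, and a line joins the lists of 1 gene. Kmt2e lies apart at 30.1 and 31.0, and 16 genes have 1 symbol because the other list holds no promoter peak.

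Among the acetyltransferases, Kat5, which encodes Tip60, the catalytic subunit of the NuA4 complex, had the strongest promoter peak in both lists. It reached from 504 bp before to 530 bp after the TSS in proliferating cells, with a fold enrichment of 5.08 and a −log10 q of 9.56 (percentile 99.1). In differentiating cells it was narrower, from 132 bp before to 512 bp after it, with a fold enrichment of 6.32 and a −log10 q of 18.6 (percentile 99.6). Ep300 followed, with −log10 q of 8.61 and 7.86 in proliferating and differentiating cells (percentiles 98.9 and 98.3). Kat7, which encodes the acetyltransferase HBO1, had −log10 q of 6.82 and 5.33. These 3 genes and Kat14 (2.81 and 1.83) were marked in both lists.

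Of the other 6 acetyltransferases, 4 were marked in the differentiating list alone. Kat2a and Kat2b, which encode GCN5 and PCAF, had a promoter peak in the differentiating list alone, with −log10 q of 2.82 and 3.02. For Kat2b a peak of the proliferating list began 175 bp downstream of the TSS, just past the promoter region, with a −log10 q of 4.31 and a fold enrichment of 4.18, whereas for Kat2a the nearest one lay 58207 bp upstream. Kat6a (1.79) and Kat8 (1.43), of the MYST family, also had weak peaks in differentiating cells alone. Crebbp, the paralogue of Ep300, had no promoter peak in either list. Its nearest peaks lay 328931 bp downstream of the TSS in proliferating cells, past the end of the gene, and 105494 bp downstream in differentiating cells, inside the gene, where the fold enrichment was 2.89 and the −log10 q 1.28. Peaks were sparse around Crebbp, with 4.8 and 5.0 per Mb of the 2 lists within 2500000 bp of the TSS, and dense around Ep300, with 33.2 and 35.0, and its part in the result was not tested. Kat6b lacked a peak at its first TSS but had one in both lists at a start 18336 bp downstream, with −log10 q of 3.05 and 1.84.

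Of the HDACs of class I, which act in the nucleus within corepressor complexes, Hdac1, Hdac2 and Hdac3 were marked in both lists and Hdac8, on chromosome X, in neither. Hdac2 had the strongest peak of the deacetylases, from 454 bp before to 547 bp after the TSS in proliferating cells (fold enrichment 3.93, −log10 q 6.09) and from 565 bp before to 391 bp after it in differentiating cells (4.21 and 7.10), with 846 bases in common. Hdac1 behaved differently. Its peak lay 1447 to 2067 bp upstream of the TSS in proliferating cells (fold enrichment 3.63, −log10 q 2.25), while in differentiating cells it covered the TSS, from 598 bp before to 305 bp after it (3.93 and 4.43). The 2 peaks share no base, and Hdac1 was the 1 exception among the 33 genes with promoter peaks in both lists.

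Hdac10, known as a polyamine deacetylase, had a peak over its TSS in the differentiating list alone, with a fold enrichment of 3.52 and a −log10 q of 5.58 (percentile 95.7), and the nearest peak of the proliferating list began 1473 bp downstream. Among the class IIa enzymes, which respond to kinase signalling by leaving the nucleus, Hdac5 was marked in both lists (2.1 and 2.82) and Hdac4 in differentiating cells alone (1.29, percentile 11.1). Hdac7 had peaks in both lists at a start 12735 bp downstream of its first, with −log10 q of 2.53 and 3.37. Hdac9, the longest of the enzyme genes, had a single peak over its 870 kb in each list and none at a start site. All 3 nuclear sirtuins were marked in either list (exact interval 29.2 to 100%), against 33.8% of all protein-coding genes. Sirt6 was marked in both lists (2.58 and 1.76). Sirt1 (1.26) and Sirt7 (1.56) were marked in proliferating cells alone, although Sirt1 fell short of a q of 0.05. The Sirt1 peak lay 836 to 1911 bp upstream of its TSS. It was shared with the promoter region of Dnajc12, and the Sirt6 peaks with that of Ankrd24. The 3 mitochondrial sirtuins Sirt3, Sirt4 and Sirt5 had no promoter peak at any start in either list (at the gene start, exact interval 0 to 70.8%). With 3 genes each, the intervals of the nuclear and mitochondrial sirtuins overlap, and no difference between them was tested. The largely cytoplasmic Sirt2 and Hdac6 had none at the gene start, although Sirt2 had a peak of −log10 q 1.97 in differentiating cells at a start 8969 bp downstream.

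In the lysine methyltransferases, the genes for the COMPASS-type enzymes were picked out after their values were seen: Kmt2a, Kmt2b, Kmt2c, Kmt2d, Kmt2e, Setd1a and Setd1b all had a promoter peak in both lists (7 of 7). This compares with 45.2% of the enzyme genes and 17.6% of all protein-coding genes. The exact interval of 59.0 to 100% does not allow for the choice of the group. The 7 genes, apart from Kmt2e, encode methyltransferases of lysine 4 of histone H3, whose methylation marks promoters and enhancers. Kmt2e, a relative whose product has little methyltransferase activity, had the strongest promoter peak of all 73 enzyme genes, from 1486 bp before to 822 bp after the TSS in proliferating cells and from 1475 bp before to 841 bp after it in differentiating cells. Its −log10 q was 30.1 and 31.0, above 99.8% of the peaks of each list. Its fold enrichment, 3.44 and 3.37, was at percentiles 60.1 and 70.7, so the gene ranks far higher by significance than by enrichment. Kmt2e lies in a stretch of chromosome 5 crowded with weakly enriched peaks: within 2500000 bp there were 46.4 and 40.6 peaks per Mb, with a median fold-enrichment percentile of 4.59 and 4.63. Kmt2c, on the same chromosome, had 32.4 and 27.2 peaks per Mb at median percentiles of 4.55 and 4.22. What this density adds to the significance of the peak was not tested.

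Kmt2d had a peak from 1066 bp before to 280 bp after the TSS in proliferating cells (fold enrichment 5.18, −log10 q 12.1) and one from 1277 to 299 bp upstream in differentiating cells (4.24 and 7.25). Kmt2a, Kmt2b, Kmt2c, Setd1a and Setd1b had −log10 q of 2.06 to 4.05 in proliferating and 2.48 to 5.69 in differentiating cells. For Setd1b the peaks overlapped the far end of the promoter region, 2563 to 3606 bp and 2434 to 3588 bp upstream. Kmt5b, which encodes a methyltransferase of lysine 20 of histone H4, had strong peaks just inside the region, from 83 and 98 bp downstream of the TSS, with −log10 q of 8.85 and 9.92. They overlapped the region by 18 and 3 bases, the fewest of the enzyme genes in each list, so that a slightly shorter region would have missed it. Its relatives Kmt5a and Kmt5c had no promoter peak, but in proliferating cells a peak began 286 and 475 bp downstream of their TSS.

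Ehmt1 and Ehmt2, which encode methyltransferases of lysine 9 of histone H3, were marked in both lists, at −log10 q of 4.49 and 2.12 for Ehmt1 and 3.13 and 4.62 for Ehmt2. Setd2, a methyltransferase of lysine 36, had 6.55 and 4.10. Setd5 had 5.27 and 3.43, Setd7 2.47 and 3.03, and Setd3, an actin histidine methyltransferase, 1.54 and 3.95. Setd4 was the 1 lysine methyltransferase marked at the gene start in a single list, with a fold enrichment of 4.23 and a −log10 q of 4.59 over the TSS in differentiating cells, while the nearest peak of the proliferating list began 5690 bp downstream. With every transcript start counted Setd4 was marked in both lists, while Kmt5a and Kmt5c were marked in proliferating cells alone. Setd6, which methylates a subunit of NF-kappaB, had no peak in either list.

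Of the demethylases, both genes of the LSD type, Kdm1a and Kdm1b, lacked a promoter peak, as did 6 of the 16 JmjC genes. Kdm1a had a peak from 210 bp downstream of its TSS in proliferating cells and Kdm1b one from 114 bp downstream in differentiating cells. Kdm3a, which removes methyl groups from lysine 9 of histone H3, had the strongest promoter peak of the class in proliferating cells. It reached from 758 bp before to 1394 bp after the TSS in proliferating cells (fold enrichment 4.29, −log10 q 6.84) and from 791 bp before to 1418 bp after it in differentiating cells (3.84 and 5.04), so that its centre moved by 5 bp, the least of any enzyme gene. Kdm8 had −log10 q of 4.39 and 5.07, about level with Kdm3a in differentiating cells, and Kdm4a 1.76 and 4.87. Kdm2b, Kdm5a, Kdm6a and Kdm6b were marked in both lists at −log10 q of 1.73 to 4.02.

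The genes for the demethylases of lysine 27 itself, Kdm6a and Kdm6b, differed in layout. The Kdm6a peaks lay over the TSS (from 486 bp before to 379 bp after it in proliferating cells), and Kdm6a was the 1 gene marked among the 5 enzyme genes on chromosomes X and Y. Among the 948 protein-coding genes on X, 7.07% were marked in either list. Kdm6b had weakly enriched peaks well upstream (1927 to 2879 bp in proliferating and 1970 to 2302 bp in differentiating cells, with fold enrichments of 2.43 and 2.26) and a wide one inside the gene, from 1940 to 4718 bp and from 1450 to 4676 bp downstream of the TSS. Kdm3b, with a −log10 q of 3.38 over its TSS in differentiating cells, counted as marked in that list alone, but the peak of the proliferating list began 116 bp downstream of the TSS, with a −log10 q of 3.37, and missed the region by 16 bp. Kdm4d (1.40) and Kdm5b (1.24) had weak peaks in the differentiating list alone.

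Among the arginine methyltransferases, Prmt2, Prmt6 and Carm1 were marked in both lists. Prmt6, which methylates histone H3, had −log10 q of 3.08 and 4.54, Carm1, a coactivator methyltransferase, 2.22 and 3.59, and Prmt2 2.92 and 2.6. Prmt1, the main enzyme of asymmetric arginine methylation, had the strongest peak of the class in the differentiating list, from 680 bp before to 739 bp after the TSS with a fold enrichment of 4.57 and a −log10 q of 5.91 (percentile 96.3). The proliferating list had a peak from 384 bp downstream. Prmt3, a mainly cytosolic enzyme, had a peak in the differentiating list alone (4.27 and 4.21), and its nearest peak in proliferating cells lay 28862 bp upstream. Prmt7 (3.8 and 3.07) showed the same layout, with the nearest proliferating peak 105968 bp upstream, and its TSS lies 1 bp from that of Slc7a6os on the opposite strand. Prmt9 was marked in proliferating cells alone, at a −log10 q of 1.54, and the differentiating list had a peak from 108 bp downstream of the TSS, 8 bp outside the region, at 2.96. Prmt5, the main symmetric arginine methyltransferase, known to be needed for oligodendrocyte development, had no peak over the gene or its promoter in either list, and the nearest lay 53028 bp and 77041 bp away. Prmt8, a form restricted to the nervous system, had no promoter peak, but it had 3 and 2 peaks within introns.

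Genes marked in 1 list alone were counted next. A promoter peak in the differentiating list alone was found at 13 enzyme genes (17.8%, 9.84 to 28.5), against 10.1% of all protein-coding genes, and in the proliferating list alone at 3 (4.11%, 0.856 to 11.5), against 6.13%. The 13 were Prmt1, Prmt3, Prmt7, Kat2a, Kat2b, Kat6a, Kat8, Hdac10, Hdac4, Kdm3b, Kdm4d, Kdm5b and Setd4, and 7 of them reached a −log10 q of 3. The 3 were Prmt9, Sirt1 and Sirt7, with −log10 q of at most 1.56. At a q of at most 0.05 the counts were 11 and 2, without Hdac4, Kdm5b and Sirt1. For 4 of the 13 (Prmt1, Kat2b, Kdm3b and Kdm5b) and for Prmt9 the other list held a peak within 1000 bp of the TSS. At Kdm5b this peak, 540 to 861 bp after the TSS, met a separate differentiating peak at 272 to 862 bp, and the promoter peak itself lay 2844 to 3393 bp upstream. With every transcript start counted, 6 of the 13 (Prmt1, Kat2b, Hdac10, Hdac4, Kdm3b and Setd4) also had a proliferating peak, and 2 of the 3 (Prmt9 and Sirt1) a differentiating one. For 6 of the 13 (Prmt3, Prmt7, Kat2a, Kat6a, Kat8 and Kdm4d) no proliferating peak lay within 20000 bp. All protein-coding genes were also marked more often in the differentiating list.

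The edge of the promoter region therefore set several calls. When it was extended to 1000 bp downstream, a choice made after the distances were seen, 45 enzyme genes were marked in proliferating cells (61.6%, against 28.9% of all genes) and 50 in differentiating cells (68.5%, against 32.9%), which narrowed the gap between the lists from 10 genes to 5. The strongest promoter peak covered the TSS at 24 of 36 genes in proliferating and 37 of 46 in differentiating cells, began within 100 bp downstream at 6 and 5, and lay wholly upstream at 6 and 4.

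**Figure D3:**
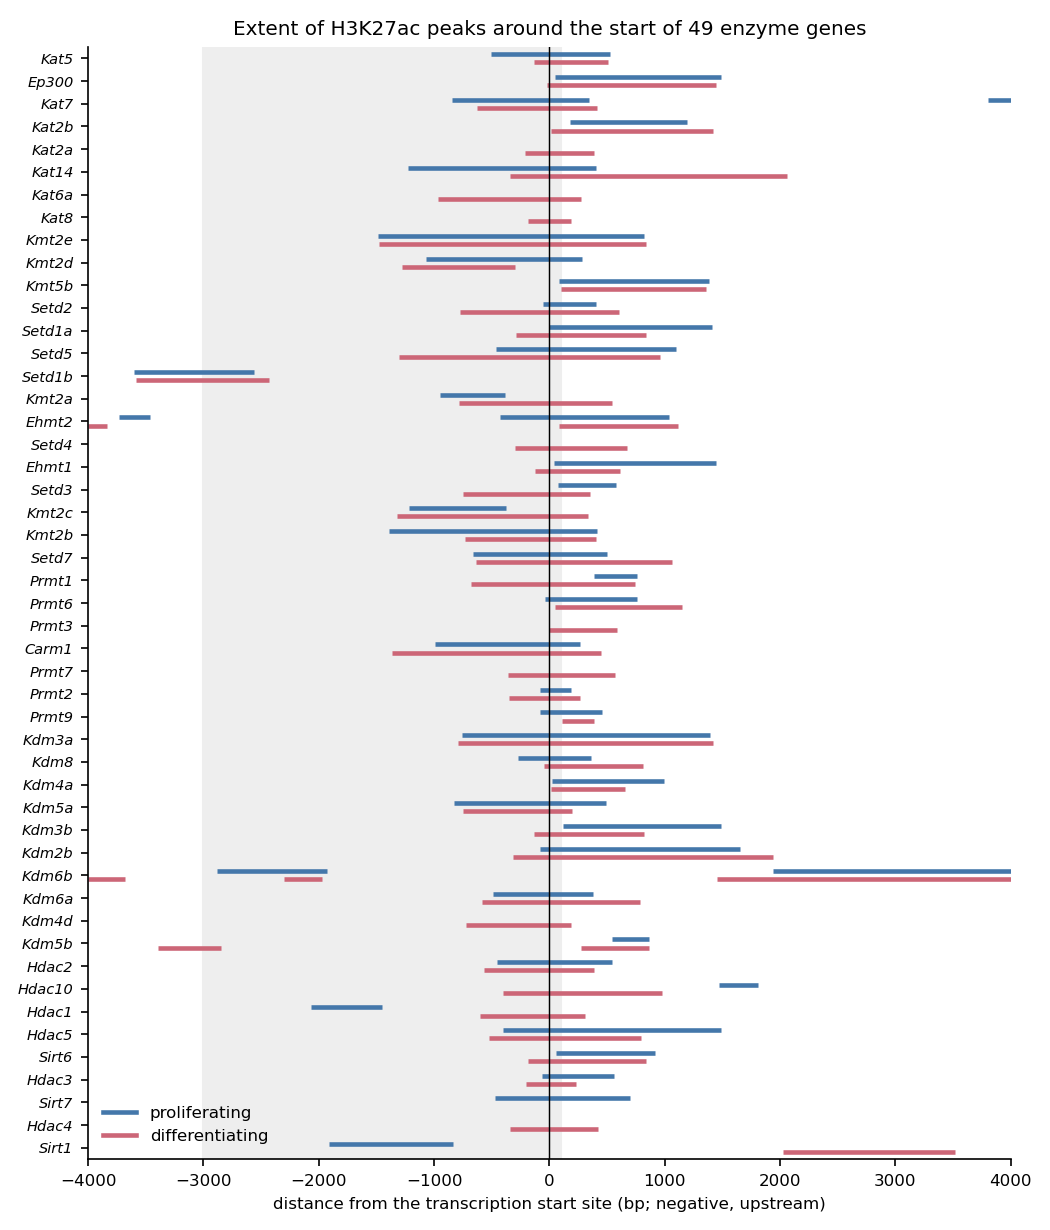
Extent of every peak within 4000 bp of the TSS (x axis, bp, downstream to the right) for the 49 enzyme genes with a promoter peak, in the order of the plot of −log10 q; the grey band is the promoter region. The peaks of both lists overlap at 32 of the 33 genes marked in both, while Hdac1 has separate peaks and those of Kmt5b begin at the edge of the band.

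Where both lists had a promoter peak, the peaks usually lay in the same place. Their centres were a median of 243 bp apart and they had a median of 839 bases in common. By percentile of −log10 q the differentiating peak ranked higher at 17 of the 33 genes and the proliferating peak at 14, and the remaining 2, Kmt2e and Kmt5b, were equal at 3 digits. Of the 36 proliferating promoter peaks of the enzyme genes, 33 (91.7%, 77.5 to 98.2) overlapped a peak anywhere in the other list, against 75.6% of all promoter peaks, and 35 of the 46 differentiating ones did (76.1%, 61.2 to 87.4), against 67.2%. Away from the promoter the enzyme genes' peaks were shared less often, 21 of 66 in proliferating (31.8%, 20.9 to 44.4) and 18 of 59 in differentiating cells (30.5%, 19.2 to 43.9), against 23.8% and 23.4% of all such gene-body peaks. With promoter and gene body together, 54 of 102 proliferating (52.9%, 42.8 to 62.9) and 53 of 105 differentiating peaks (50.5%, 40.5 to 60.4) had a counterpart, against 37.7% and 36.8% of the promoter and gene-body peaks of all genes.

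Many of the enzyme genes have several annotated starts, with a median of 8 distinct TSS against 3 for all protein-coding genes. Counting the start of every transcript, 49 enzyme genes were marked in proliferating cells (67.1%, against 31.3%), 54 in differentiating cells (74.0%, against 35.3%) and 59 in either list (80.8%, 69.9 to 89.1, against 42.1%). The 10 genes gained were Kat6b, Hdac7, Hdac11, Sirt2, Kdm1a, Kdm1b, Kdm2a, Kdm4c, Kmt5a and Kmt5c, of which Kat6b, Hdac7 and Kdm2a had such a peak in both lists. No peak at any start was found for 14 genes. Of these, 7 (Prmt8, Crebbp, Hdac9, Sirt4, Kdm4b, Kdm5c and Kdm7a) had a peak elsewhere over the gene, and 7 had none at all: Prmt5, Hdac6, Hdac8, Sirt3, Sirt5, Kdm5d and Setd6.

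Over the gene from start to end, 53 enzyme genes had a peak in proliferating cells (72.6%, 60.9 to 82.4, against 41.9% of all genes) and 59 in differentiating cells (80.8%, 69.9 to 89.1, against 43.5%). The enzyme genes are long, with a median of 41.8 kb against 17.4 kb. Per 100 kb of gene they had 1.94 and 2.04 peaks, against 1.65 and 1.70. Once peaks that begin within 1000 bp of the TSS or before it were left out, the values were 1.17 and 1.11 per 100 kb, against 1.18 and 1.14 for all genes. Per gene, 39.7% and 38.4% of the enzyme genes had such an interior peak, against 26.0% and 24.7% of all genes, which are shorter.

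Hdac4 had the most peaks over a gene, 10 in each list over 267 kb, and 2 in each list overlapped a peak of the other. The strongest by −log10 q, with a fold enrichment of 4.78 and a −log10 q of 5.83 in proliferating cells and 3.69 and 4.41 in differentiating cells, was among these 2, while 9 and 7 of the 10 lay in introns alone. Kmt2e had 5 and 7 peaks over 69.8 kb. Apart from the promoter peak their fold enrichment was 2.24 to 2.41 in proliferating and 2.12 to 2.5 in differentiating cells, at percentiles of 3.17 or lower. Hdac7 had 3 and 4 peaks, in a neighbourhood of 47.8 and 50.8 peaks per Mb. Kdm3b had 3 in each list and every one overlapped a peak of the other list, the first at its start. Kmt2d also had 3 in each list, 2 of them on coding exons, and 1 of its 3 proliferating peaks but none of its differentiating ones inside the gene had a counterpart.

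**Figure D4:**
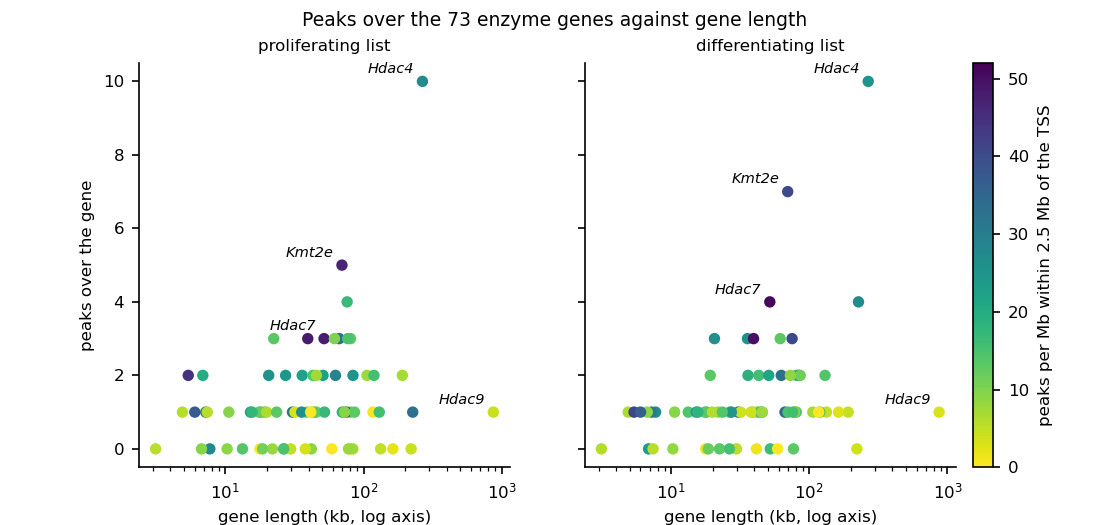
Number of peaks over each of the 73 enzyme genes (y axis) against gene length (x axis, kb, log scale), for the proliferating and the differentiating list. Colour gives the peaks per Mb of the list within 2500000 bp of the TSS; Hdac4 has 10 peaks in each list, Kmt2e has 5 and 7 in a dense neighbourhood, and Hdac9, the longest gene, has 1.

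The density of peaks around a gene moved with the share marked, and its part in the results was not tested. In the proliferating list the 12 enzyme genes with under 5 peaks per Mb nearby had a promoter peak in 16.7% (2 genes, against 10.5% of all genes in such neighbourhoods), the 40 with 5 to 20 per Mb in 50% (against 22.8%) and the 21 with 20 or more in 66.7% (against 37.1%). In the differentiating list the shares were 27.3% of 11, 64.3% of 42 and 80.0% of 20 enzyme genes, against 12.5%, 27.6% and 41.4% of all genes. Gene-body peaks per 100 kb of the enzyme genes went from 0.222 to 2.31 and 3.94 over the same bins of the proliferating list, against 0.447, 1.48 and 3.52 for all genes. In the sparsest bin of the differentiating list they were 0.382 against 0.509. Chromosomes 1, 10 and 15 are rich in peaks and hold 10 of the enzyme genes, 9 of them marked in either list, against 48.5% of all genes there. On the other chromosomes 40 of 63 were (63.5%, 50.4 to 75.3), against 31.5% of all genes.

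Promoter sequence was compared over 250 bases before to 50 after the TSS. The enzyme promoters had a median GC content of 59.7% and a median ratio of observed to expected CpG of 0.757, against 55% and 0.524 for 21931 protein-coding genes with a complete sequence. Promoters with a GC content of at least 55% and a ratio of at least 0.65 were called CpG-rich, and 41 of 73 enzyme promoters (56.2%) were, against 33.9%. Of these 41, 29 carried a promoter peak in at least 1 list (70.7%), against 60.0% of all CpG-rich promoters. Of the other 32, 20 did (62.5%), against 20.4%. Hence among CpG-rich promoters the enzyme genes lay closer to the background than among the other promoters. Among the enzyme genes themselves, those with and without a promoter peak had median GC contents of 61.0% and 57.0% and CpG ratios of 0.757 and 0.743. Several CpG-rich enzyme promoters had no peak, among them Kdm7a (GC 83.0%, ratio 1.30), Crebbp (67.0% and 1.07) and Kdm1a (61.3% and 1.08), whereas Hdac4 (43.0% and 0.144) had one.

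**Figure D5:**
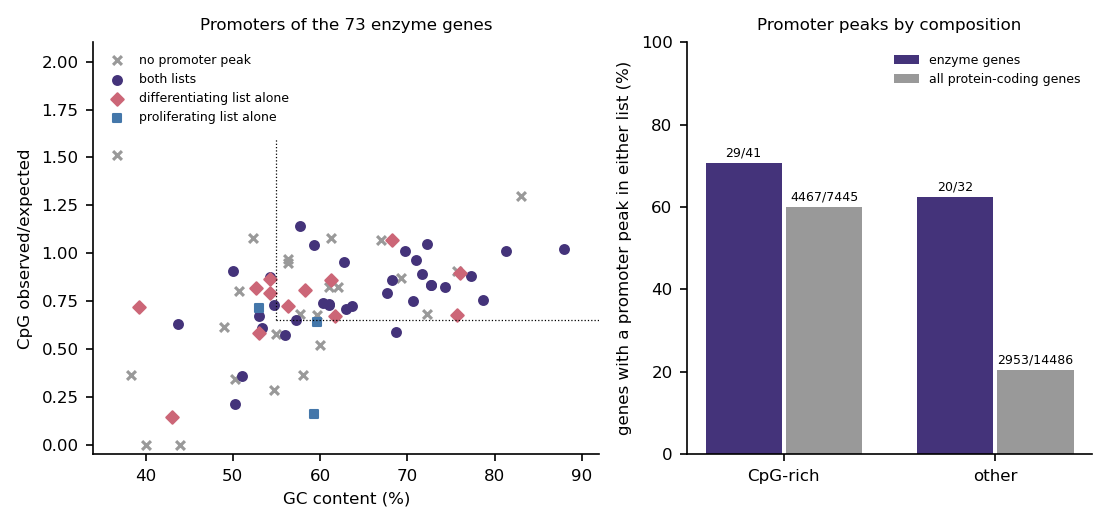
Left, GC content (x axis, %) against the observed/expected CpG ratio (y axis) of the promoters of the 73 enzyme genes, by the lists in which they had a promoter peak; dotted lines bound CpG-rich promoters. Right, share of genes with a peak at the promoter in either list (y axis, %) for CpG-rich and other promoters, with counts above the bars: 70.7% against 60.0% for CpG-rich and 62.5% against 20.4% for other promoters.

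Motifs were searched in the same 300 bases on both strands, as exact matches. The GC box bound by Sp1 and KLF factors (GGGCGG) was in 44 enzyme promoters (60.3%, against 43.0% of all promoters and 80.2% of CpG-rich ones), in 33 of the 49 with a promoter peak and in 11 of the 24 without. Kmt2c held 12 of them, the most, and the Kmt2d sequence above holds 4. The CCAAT box (CCAAT) was in 29 (39.7%, against 39.0% of all and 36.8% of CpG-rich promoters), in 18 of the 49 and 11 of the 24. The shares of the other motifs are given in the same order. The ETS motif (CCGGAAG) was in 13 (17.8%, against 10.8% and 19.6%). The E-box (CACGTG) was in 8 (11%, against 7.76% and 12%), 7 of them with a peak, Kat5 and Prmt1 included. The core of the YY1 motif (AAGATGGC) was in 6, namely Crebbp, Ep300, Kat6a, Kdm6b, Kmt2b and Kmt2e (8.22%, against 2.92% and 4.82%), and 5 of these had a peak. The core of the NRF1 motif (GCATGCGC) was in 3 (4.11%, against 3.71% and 6.47%). The CREB/ATF site (TGACGTCA) was in 1, Prmt9 (1.37%, against 2.43% and 4.31%). The E2F sites (TTTCCCGC or TTTGGCGC) were in 2 without a peak, Hdac8 and Kmt5c (2.74%, against 2.0% and 3.94%). The TATA box (TATAAA) was in 5 (6.85%, against 12.7% and 3.95%). For the GC box, ETS, E-box, NRF1, E2F and TATA motifs the enzyme share thus lay between those of all and of CpG-rich promoters. For the CCAAT box it was close to both (39.7%, against 39.0% and 36.8%). For YY1 it lay above both and for CREB/ATF below both, but these shares rest on 6 genes and 1 gene. No interval was computed for the motif shares, and no difference was tested. A match describes the letters and not binding.

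The promoter regions of 10 enzyme genes meet that of another protein-coding gene, and all 10 had a promoter peak: Prmt7, Kat14, Kat2a, Hdac3, Sirt1, Sirt6, Kdm4d, Ehmt2, Setd3 and Setd4. Of the other 63, 39 had one. The share among all protein-coding genes with such regions was not counted, so these counts do not set the enzyme genes apart. In 7 of the 10 a TSS on the opposite strand lies within 1000 bp, at 1 bp for Prmt7 and 63 bp for Hdac3, whose partner is Rell2. At these genes the peak cannot be assigned to one of the pair, which concerns 6 of the 36 proliferating and 9 of the 46 differentiating genes.

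The genes of 5 related groups were looked up in the same way. Of all protein-coding genes, 23.7% were marked in proliferating cells, 27.7% in differentiating cells and 33.8% in either list. Of 30 further subunits of acetyltransferase complexes, 25 were marked in either list (18 in proliferating and 24 in differentiating cells), with Epc2, a NuA4 subunit, the strongest at −log10 q of 15 and 13.7. Of 22 subunits of HDAC corepressor complexes, 16 had one (14 and 13), led by Tbl1xr1 at 8.21 and 5.35. Of 12 COMPASS subunits, the partners of the Kmt2 enzymes, 8 had one (7 and 6), led by Paxip1 at 10.8 and 9.25. Readers of acetyl-lysine had 10 of 20 (8 and 9), led by Yeats4 at 3.46 and 8.99, and other histone methylation enzymes 11 of 24 (8 and 10), led by Dot1l, the methyltransferase of lysine 79 of histone H3, at 11.4 and 9.79. In all, 70 of these 108 genes (64.8%) were marked in either list, close to the 67.1% of the 73 enzyme genes.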

How the data were processed

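H3K27ac ChIP-seq peak lists of Oli-neu cells were used, 1 library per state. According to the submitters' processing notes and the methods, the authors aligned reads to GRCm38/mm10 with Bowtie2 2.1.0, removed duplicates with SAMtools, called broad peaks with MACS2 2.0.10 and removed blacklisted regions with bedtools. Each deposited peak carries 3 values without a header. By the column order of MACS2 they were read as −log10 q in last place, −log10 p before it and, first, the ratio of enrichment over background (fold). Depth per library is not in the lists.

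Genes came from GENCODE M21 (GRCm38). An overlap of 1 base counted. Calculations used Python 3.11.15, pandas 2.3.3, numpy 2.4.6, scipy 1.17.1 and pysam 0.24.0, and the overlap counts were tested on simulated data. Intervals are exact (Clopper-Pearson, 95%). No test was run, as there were no replicates. Sequences were read from the RefSeq GRCm38.p6 genome at the GENCODE TSS and printed for the strongest peak of each class among the 60 enzyme genes with an entry in the RefSeq promoter table.

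The members and all lists were chosen with earlier results of these data known. Values are given for the 3 strongest promoter peaks of each class, genes marked in 1 list alone with −log10 q of at least 3 (otherwise the 3 strongest), the 5 genes with most peaks over the gene, those at the edge of the promoter region and the strongest gene of each related group. Others were named to account for every gene, and after their values were seen.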

Additional observations from a re-analysis of the deposited data

How the results depend on the processing

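Over 13 settings, 76 alternatives were computed for 8 counts and shares of the enzyme genes, and 59 stayed within 1.5 times the value reported (for shares, within the interval). With peaks of −log10 q of at least 5 alone, a promoter peak remained at 10 genes in proliferating cells (13.7%, against 3.27% of all genes). In differentiating cells it remained at 13 (17.8%, against 4.25%), in either list at 15 and in both at 8. A gene-body peak remained at 11 in each list (15.1%, against 4.62% and 6.07% of all genes). Counterparts were found for 72.7% of the proliferating peaks and 61.5% of the differentiating ones. With at least 0.5 of the peak inside the promoter region the counts in proliferating, differentiating, either and both lists were 18, 23, 28 and 13. When each peak of a pair had to be covered to at least 0.5, the counterpart shares were 34.3% and 33.3%. Where no share of all genes or peaks is given beside a value here, it was not counted at that setting. Such values do not set the enzyme genes apart. Leaving out genes with 20 or more peaks per Mb nearby, chosen after seeing the data, left 22 genes with a promoter peak in proliferating and 30 in differentiating cells and 33 with a gene-body peak in proliferating cells, and these counts are lower by construction, since fewer genes entered. The extension of the promoter region to 1000 bp after the TSS was also chosen after seeing the data.

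No paired analysis was possible because each state had 1 ChIP-seq library and no test was run, and the ATAC-seq samples that carry replicate numbers were not analysed here. Without replicates, no difference between the lists can be told apart from variation between libraries. The depth behind the peaks is unknown, so a missing peak means that none was called.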
